A study of Mus musculus with 8 samples.

Results

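Methylated regions of adult intestinal stem cells were set against those of the E12.5 gut epithelium, the latest and the earliest stem or progenitor population of a series on the mouse small intestine. The comparison used 4 of the 8 libraries of the series, 2 of intestinal stem cells (ISC) and 2 of E12.5 epithelium, which the study describes as biological duplicates. The assay was MBD sequencing: sheared DNA is captured on a protein domain that binds methylated CpG sites, and the captured fragments are sequenced. The data of each library are a list of peaks, stretches of the mm9 genome where pulled-down fragments piled up. Where a region has no peak, its tags (mapped fragments) stayed below the cutoff of the caller.

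The small intestine was the source throughout, from mice on a mixed C57BL/6 CD1 background. ISC came from Lgr5EGFP-Cre-ERT males at postnatal day 60 (P60), in which Lgr5, a receptor gene active in crypt base stem cells, drives EGFP, and were sorted for high EGFP. E12.5 cells (E for embryonic day) were sorted as living EpCAM+CD31−CD45− cells. The sources used here do not give the embryos' sex or their genotype at that allele. EpCAM marks epithelium, CD31 endothelium and CD45 leukocytes. The 2 E14.5 libraries were sorted in the same way from embryos of that stage, and the 2 enterocyte libraries (P60 males of the ISC line, EpCAM+CD31−CD45−) hold absorptive cells of the villus. These 4 libraries did not choose regions and were only looked up. Peak lists hold no expression values, so the sorted cell types could not be checked against marker genes, and the number of animals behind each replicate is not given in the sources used here.

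As background, DNA methylation in mammals is placed mainly on the cytosine of CpG pairs by the DNMT enzymes, copied at cell division by DNMT1 and removed through oxidation by the TET enzymes. Most of the genome outside CpG islands and active regulatory elements is methylated in differentiated tissues. Around E12.5 the gut epithelium is a proliferating layer of progenitors, villi form in the days that follow, and the Lgr5-positive stem cells of the adult crypt renew the epithelium throughout life.

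Each list was reduced to its highest-scoring peaks, as many as the shortest list (E12.5 replicate 2) holds, so that lists of equal length were compared, and only the 19 autosomes were kept. Overlapping peaks of the 4 lists were merged into 189102 regions. A region was called ISC-only when both ISC libraries had a peak in it and neither E12.5 library had one, and E12.5-only in the reverse case. This gave 14283 ISC-only and 8981 E12.5-only regions, 23264 of the 189102 in all. Regions are given by position on mm9 alone. The annotation used here is of GRCm38.p6, positions were not converted between builds, and genes were not analysed here.

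The E12.5 libraries stood apart from the others in depth and enrichment. They had 55237390 and 55442400 tags, against 32423813 and 31438314 in ISC, but 9.84% and 7.46% of their tags lay in peaks, against 23.8% and 38.9% in ISC. At equal length the weakest peak kept scored 54.5 and 50 at E12.5 and 81.0 and 110 in ISC (minus 10 times log10 of the caller's p-value). An ISC peak therefore had to pass a higher score to be kept than an E12.5 peak, and a region counted as lacking ISC could hold a weaker ISC peak. The E12.5 replicates were also less alike than the ISC replicates. With equal lists, the bases covered by both lists were 38.4% of those covered by either for the 2 ISC libraries and 22.0% for the 2 E12.5 libraries. The 4 pairs of an ISC with an E12.5 library gave 22.2% to 25.5%, so the E12.5 replicates overlapped each other no more than they overlapped ISC. The peak lists do not settle whether 1 of the E12.5 libraries is poorly enriched or mislabelled, and E12.5-only means called in both libraries labelled E12.5. Of the 134115 regions with a peak in any E12.5 library, 74.7% had one in a single replicate, and of the 119761 regions with an ISC peak 59.1% did.

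The comparison asked which methylated regions separate the adult stem cell from the early gut epithelium. With equal lists the 14283 ISC-only regions were 7.55% of all regions and 29.2% of the 48970 called in both ISC libraries. The 8981 E12.5-only regions were 4.75% of all regions and 26.5% of the 33885 that both E12.5 libraries held. Peaks in all 4 libraries were found at 16882 regions. Regions on which the replicates of a group differed were more numerous than either class, since 40704 had a peak in 1 ISC library alone and 60360 in 1 E12.5 library alone. With 2 libraries a group the smallest two-sided p of an exact permutation test is 0.33, so the counts carry no test over replicates.

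**Figure D1:**
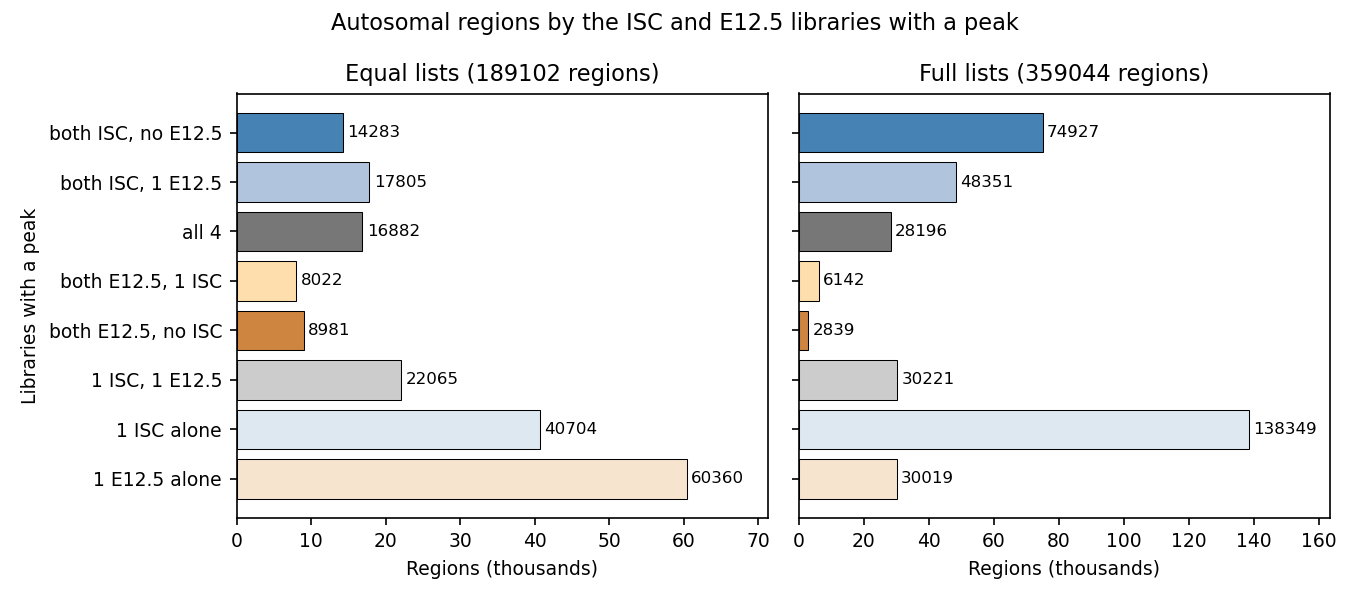
Number of autosomal regions (in units of 1000, horizontal axis) by which of the 2 ISC and 2 E12.5 libraries had a peak, with equal lists on the left and full lists on the right. With equal lists the 14283 ISC-only and 8981 E12.5-only regions are fewer than the 60360 with a peak in 1 E12.5 library alone, and with full lists 74927 stand against 2839.

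With full lists, 359044 regions were formed and 74927 (20.9%) were ISC-only, 49.5% of the 151474 called in both ISC libraries. E12.5-only regions fell to 2839 (0.791%), 7.64% of the 37177 that both E12.5 libraries held. Both full ISC lists (203322 and 282490 peaks) were longer than both E12.5 lists (100314 peaks in replicate 1, fewer in replicate 2), and list length and group cannot be told apart in these counts. The excess of ISC-only regions with equal lists was reversed where a peak in 1 E12.5 library was enough. Without E12.5 replicate 1 the counts were 24123 ISC-only and 40359 E12.5-only, without E12.5 replicate 2 they were 22345 and 38276, and with a peak in at least 1 replicate they were 54987 and 69341. Without ISC replicate 1 they were 34367 and 12700, and without ISC replicate 2 they were 35384 and 13308. Leaving out a library loosens the demand on its own group, so that group's count rises by construction. It also leaves 1 library fewer whose peak would exclude a region from the other group, and that count rose too. Taken per group, the shares of called regions were close without E12.5 replicate 1 (49.3% of ISC and 48.1% of E12.5 regions) and without E12.5 replicate 2 (45.6% and 45.4%). With a peak in at least 1 replicate they were 45.9% of ISC and 51.7% of E12.5 regions.

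Absence with equal lists was then looked up in the full lists. Shortening kept 84.7% and 100% of the E12.5 lists but 41.8% and 30.1% of the ISC lists, so far more weaker peaks were there to be found for ISC than for E12.5, and the 2 directions cannot be compared in this respect. Of the 14283 ISC-only regions, 13266 (92.9%) lacked a peak in both full E12.5 lists, and the other 1017 had one in E12.5 replicate 1, the E12.5 list that was shortened. Of the 8981 E12.5-only regions, 2362 (26.3%) lacked a peak in both full ISC lists. The remaining 6619 held an ISC peak below the score kept, in both replicates at 3032 of them. The median of these weaker ISC peaks was 29 tags in replicate 1 and 34 in replicate 2, at the 35.1 and 45.3 percentile of their lists.

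Most ISC-only regions had a peak in the full E14.5 lists, which were the longest of the series (317772 and 338262 peaks). Of these regions, 11905 (83.4%) had a peak in both E14.5 libraries, 1777 (12.4%) in 1 library and 601 (4.21%) in neither. Over all 189102 regions these shares were 66.8% for both and 12.3% for neither, and over the regions called in both ISC libraries 92.0% and 1.39%. Per E14.5 library the share of ISC-only regions with a peak was 90.9% and 88.2%, 89.6% ± 1.88 on average (SD, n = 2). For the E12.5-only regions it was 79.7% and 72.2%, 76.0% ± 5.30, and for all regions 77.3% ± 2.86. Of the E12.5-only regions, 5646 (62.9%) had one in each of the E14.5 libraries and 982 (10.9%) in neither, against 86.1% and 3.24% over the regions called in both E12.5 libraries.

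The order of these shares was the same with E14.5 lists of equal length, where 51.3% ± 3.18 of the ISC-only and 26.1% ± 2.77 of the E12.5-only regions had an E14.5 peak, and 36.0% ± 2.08 of all regions did. In both E14.5 equal lists a peak was found at 32.7% of the ISC-only and 12.3% of the E12.5-only regions, against 22.6% of all. The regions called in both ISC libraries gave 54.5% and those called in both E12.5 libraries 48.5%, above the group-only regions. The order turned under 2 alternatives. With equal lists ranked by fold enrichment the shares were 82.2% for ISC-only and 83.7% for E12.5-only regions, and without ISC replicate 2 they were 79.9% and 82.0%. With full lists throughout, 62.1% of the 74927 ISC-only regions were called at E14.5 in both replicates and 11.2% in neither, against 51.6% and 20.4% of all 359044 regions. Of the 2839 E12.5-only regions of the full lists, 39.0% had a peak in both and 27.4% in neither. Over the full-list regions called in both ISC libraries these shares were 74.4% and 6.49%. Over those called in both E12.5 libraries they were 85.2% and 3.64%.

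Enterocytes, the adult cells that descend from ISC, had peaks at most ISC-only regions. The share with a peak was 90.5% ± 5.19 of ISC-only, 54.1% ± 6.07 of E12.5-only and 67.0% ± 6.44 of all regions (SD, n = 2 enterocyte libraries). Both enterocyte libraries had a peak at 83.3% of the ISC-only regions and at 38.6% of the E12.5-only regions, against 55.2% of all regions. Neither had one at 2.20% of the ISC-only and 30.4% of the E12.5-only regions, against 21.1% of all. Over the regions called in both ISC libraries these shares were 91.0% for both and 0.982% for neither. Over those called in both E12.5 libraries they were 77.4% and 9.02%, so each class lay below its own group in the share with both. Among the 2362 E12.5-only regions that also lacked ISC peaks in the full lists, both enterocyte libraries had a peak at 11.5% and neither at 64.6%. Both enterocyte and both E14.5 libraries had a peak at 10112 ISC-only regions (70.8%), so these were called in every library outside E12.5. At 475 ISC-only regions (3.33%) both enterocyte libraries and neither E14.5 library had a peak, that is, in every adult library and, with equal E12.5 lists, at neither embryonic stage. Just 25 of the 14283 had a peak in no E14.5 and no enterocyte library. Of the E12.5-only regions, 648 (7.22%) had a peak in no E14.5 and no enterocyte library, and 1209 (13.5%) had one in both E14.5 and no enterocyte library.

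**Figure D2:**
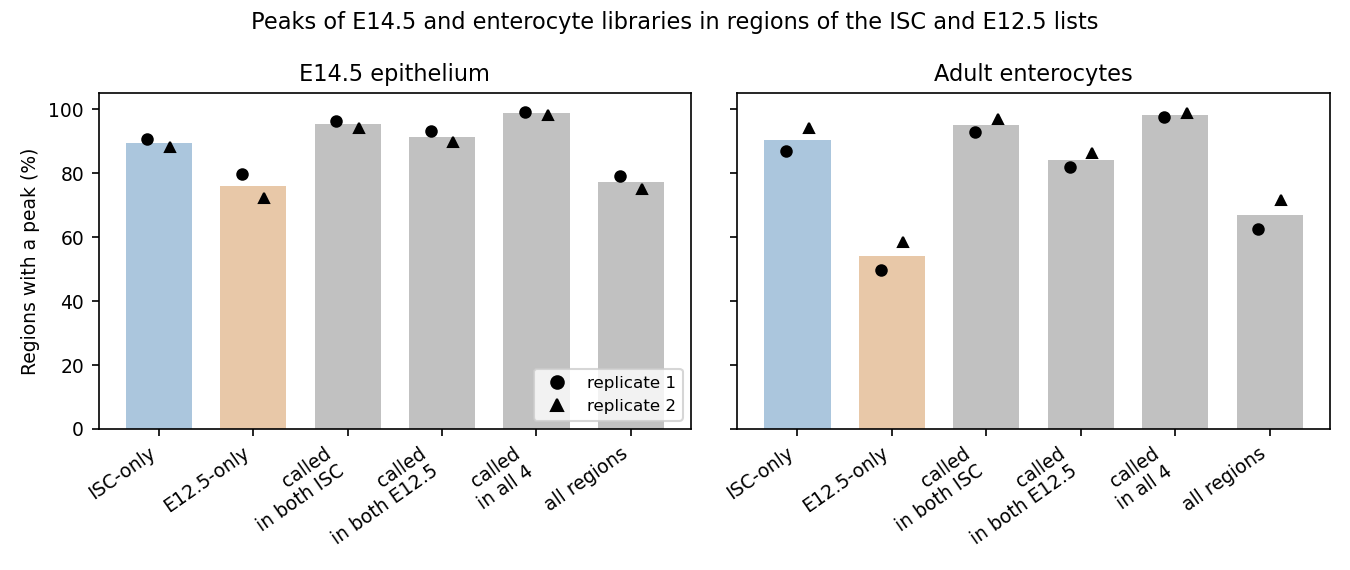
Percent of regions (vertical axis) with a peak in each E14.5 library (left) and each enterocyte library (right), looked up in full lists, for the ISC-only and E12.5-only regions and 4 reference sets of the same equal lists. Bars are means of the 2 libraries and symbols the single libraries. ISC-only regions lie at 90.9% and 88.2% at E14.5 and E12.5-only regions at 49.8% and 58.4% in enterocytes.

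Group-only regions held shorter and weaker peaks than the regions shared by all 4 libraries. Lists were cut by score and absence was judged on the cut lists, so the classes were not chosen independently of strength. These values describe the classes and test nothing. In ISC the median peak length was 579 and 662 bp in ISC-only regions, against 741 and 851 bp in shared regions. At E12.5 it was 597 and 503 bp in E12.5-only regions, against 738 and 617 bp. ISC-only regions held a median of 41 tags in ISC replicate 1 and 51 in replicate 2, which is 1.26 and 1.62 RPM (tags scaled to a library of 1000000 tags). Shared regions held 57 and 73 tags in the same libraries, or 1.76 and 2.32 RPM. E12.5-only regions held a median of 48 and 42 tags at E12.5, or 0.869 and 0.758 RPM, and shared regions 63 and 54 tags, or 1.14 and 0.974 RPM. The difference in RPM between the stages is seen in the shared regions too, so it is not particular to the group-only regions. Of the ISC-only regions, 1674 (11.7%) were in the top 10% of both ISC lists, against 40.8% of the shared regions. Of the E12.5-only regions, 136 (1.51%) were in the top 10% of both E12.5 lists, against 14.3% of the shared regions. These are ranks in full lists, of which the equal lists kept 41.8% and 30.1% in ISC but 84.7% and 100% at E12.5. The ISC and E12.5 shares can therefore not be compared with each other.

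The share of group-only regions fell with strength in both directions. Absence of a peak is related to strength through the score cut and the caller's cutoff, so the fall is a description and not a separate result. The same relation bears on the E14.5 shares. The regions called in both libraries of a group were put in 10 equal classes by the lower of the 2 score percentiles. Percentiles are of full lists, so the classes start at 58.2 in ISC and at 0.00765 at E12.5. The same class number is thus not the same strength in the 2 groups. In the weakest ISC class 43.4% were ISC-only and in the strongest 8.41%. At E12.5 the shares were 42.3% and 5.31%. With absence judged on full lists, the shares of E12.5 regions without an ISC peak went from 12.3% to 1.65%, and those of ISC regions without an E12.5 peak from 40.9% to 7.62%. Peaks in both E14.5 libraries were found at 79.9% of the ISC-only regions of the weakest class and 87.9% of the strongest, and at 56.0% and 75% of the E12.5-only regions. In every class these shares lay below those of all regions called in both libraries of the group, which include regions with peaks of the other group.

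**Figure D3:**
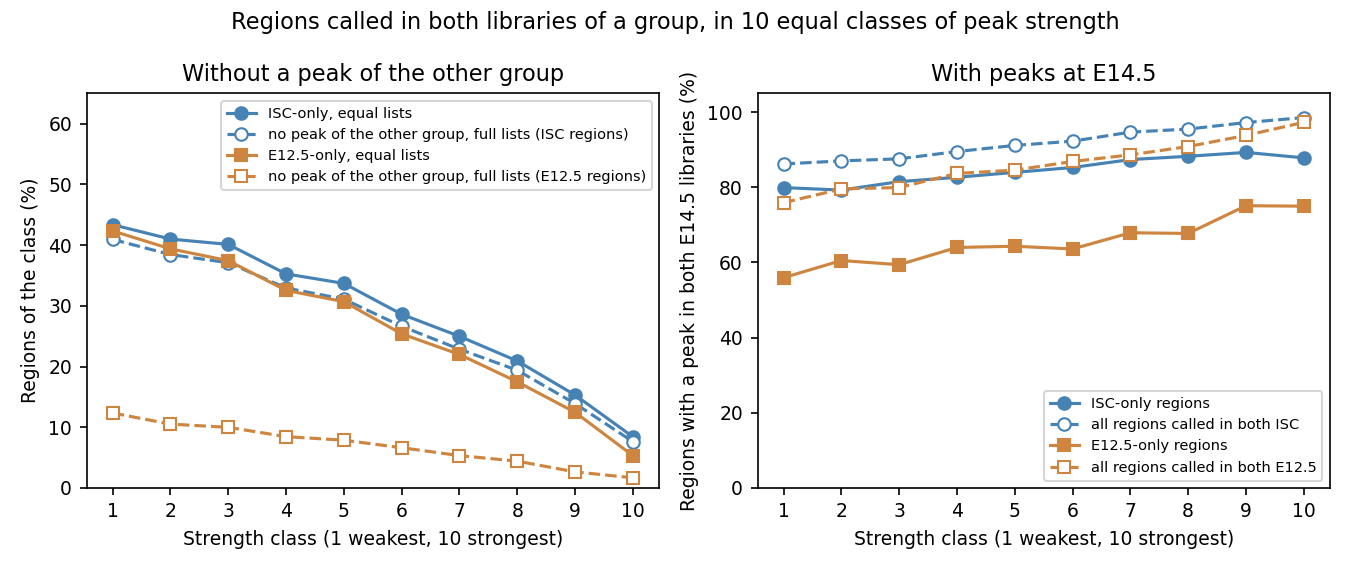
Regions called in both libraries of a group, in 10 equal classes of peak strength (horizontal axis, 1 weakest). Left, percent without a peak of the other group with equal lists (filled) and full lists (open); right, percent with a peak in both E14.5 libraries for group-only (filled) and all regions of the class (open). The ISC-only share goes from 43.4% to 8.41% and the E12.5-only share from 42.3% to 5.31%. Classes start at percentile 58.2 of the full lists in ISC and 0.00765 at E12.5.

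Among ISC-only regions the median lower percentile was 76.8 for those with peaks in each E14.5 library, 73.6 for the 1777 with a peak in 1 and 75.8 for the 601 with none. The median tags in the ISC libraries were 42 and 53, then 37 and 45, then 42 and 52, so the regions called in a single E14.5 library were the weakest. Among E12.5-only regions the percentile was 38.9 with both, 34.5 with 1 and 30.7 with none, and the E12.5 tags were 50 and 44, then 46 and 40, then 43 and 37. The E12.5-only regions with no E14.5 peak more often lacked a weaker ISC peak, 62.5% against 17.0% of those with both.

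Among ISC-only regions with E14.5 peaks, the highest ranked was at 150480562 to 150482619 on chromosome 7. Its peaks held 182 and 223 tags in ISC, 247 and 271 in enterocytes and 111 in E14.5 replicate 1, with the nearest E12.5 peak 29021 bp away. In E14.5 replicate 2 it held 3 separate peaks of 79 tags in all, the best of 37. On chromosome 9, from 20227328 to 20228457, ISC held 120 and 142 tags, E14.5 68 and 96, and enterocytes 95 and 80. In RPM these E14.5 values of 1.97 and 2.75 were below the ISC values of 3.70 and 4.52 and spanned the enterocyte values of 2.19 and 2.04. On chromosome 11, from 102008404 to 102009752, the tags were 95 and 151 in ISC, 50 and 37 at E14.5 and 158 and 126 in enterocytes. On chromosome 17, from 23677249 to 23678869, they were 108 and 147 in ISC, 52 and 28 at E14.5 and 166 and 181 in enterocytes. In both, the values of E14.5 replicate 2 are sums of 2 peaks. Summed in this way, the E14.5 RPM (0.803 to 1.5) lay below all 4 adult values (2.93 to 4.80), in regions that were ranked by their ISC scores. The last 2 were on chromosome 12, from 12943488 to 12944959, with 3.39 and 4.61 RPM in ISC and 1.5 and 1.32 at E14.5, and on chromosome 1, from 194659398 to 194660776, with 3.45 and 4.20 in ISC and 1.42 and 1.75 at E14.5. All 6 were called in every library but the E12.5 pair, and the nearest E12.5 peak to the chromosome 1 region lay 2842 bp away.

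Of the ISC-only regions with no E14.5 peak, all of the 6 ranked highest were called in both enterocyte libraries. The first, at 55926152 to 55928486 on chromosome 13, held 5.52 and 7.79 RPM in ISC and 5.65 and 6.31 in enterocytes. The second, at 58649869 to 58652254 on chromosome 12, held 5.43 and 7.32 in ISC and 6.64 and 8.79 in enterocytes. In both, the ISC and enterocyte values overlapped. The nearest E14.5 peak lay 1791 bp from the first and 7129 bp from the second. On chromosome 5, from 120117696 to 120119432, ISC held 154 and 187 tags and enterocytes 281 and 258, with no E12.5 peak within 18058 bp but an E14.5 peak 179 bp away. The fourth, from 148087144 to 148088191 on chromosome 3, had 87 and 114 ISC tags and 204 and 199 enterocyte tags, and lay 292 bp from an E12.5 and 343 bp from an E14.5 peak. These gaps are shorter than the regions themselves, as is that of 1791 bp for the chromosome 13 region (2335 bp). For the chromosome 5 and 13 regions at E14.5, and for the chromosome 3 region at both stages, a peak thus stood near the merged interval. The last 2 stood clear of embryonic peaks. On chromosome 10, from 127101045 to 127102253, ISC held 82 and 103 tags, at a fold enrichment over the local background of 10.2 and 11.6 (the authors' values), with the nearest embryonic peak 4481 bp away. On chromosome 3, from 86349913 to 86352498, ISC held 205 and 286 tags and enterocytes 306 and 301, with the nearest E14.5 peak 3633 bp and the nearest E12.5 peak 34993 bp away.

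The 6 E12.5-only regions ranked highest among those with peaks at E14.5 had no peak in any adult library. The first, from 14979435 to 14980686 on chromosome 5, had 106 and 138 E12.5 tags and 21 and 15 E14.5 tags, which is 1.92 and 2.49 against 0.608 and 0.430 RPM. The embryonic stages did not overlap there. The second, from 167121158 to 167122277 on chromosome 1, had 104 tags in each E12.5 library and 112 and 66 at E14.5, and the third, at 84718203 to 84719074 on chromosome 15, had 87 in each E12.5 library and 130 and 53 at E14.5. ISC peaks lay 421 and 641 bp from them. On chromosome 7, from 107332159 to 107333247, E12.5 held 94 and 75 tags and E14.5 69 and, over 2 peaks, 54, and the nearest ISC peak was 5948 bp away. Regions on chromosome 12, from 109237624 to 109238414, with 77 and 71 tags at E12.5, and on chromosome 9, from 66001415 to 66002439, with 74 and 101, completed the list. Their nearest ISC peaks lay 1143 and 304 bp away, and E14.5 held 43 and 46 tags in the former and 77 in each library in the latter, over 2 peaks in replicate 2.

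Of the 6 leading E12.5-only regions that lacked E14.5 peaks, 5 had no peak in any other library. On chromosome 9, from 35100680 to 35101546, E12.5 held 76 and 80 tags. On chromosome 12 the tags were 79 and 68 (113703742 to 113704597), on chromosome 10 they were 57 and 71 (43958213 to 43958813), on chromosome 8 they were 51 and 49 (19962894 to 19963402), and on chromosome 14 they were 69 and 73 (83896092 to 83897028). The chromosome 14 region was the most isolated of these, with the nearest ISC peak 17805 bp and the nearest E14.5 peak 41117 bp away. The chromosome 8, 10 and 12 regions had an ISC peak 327, 347 and 387 bp away. In the sixth, from 88227918 to 88228822 on chromosome 7, E12.5 held 86 and 76 tags and enterocytes 47 and 40, with none at E14.5 or in ISC. Named E12.5-only regions held 0.884 to 2.49 RPM in the E12.5 libraries and named ISC-only regions 2.53 to 9.10 in the ISC libraries. With intervals of 100 bp either side of summits in place of whole peaks, 2 of the 12 named ISC-only and 8 of the 12 named E12.5-only regions kept their call.

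**Figure D4:**
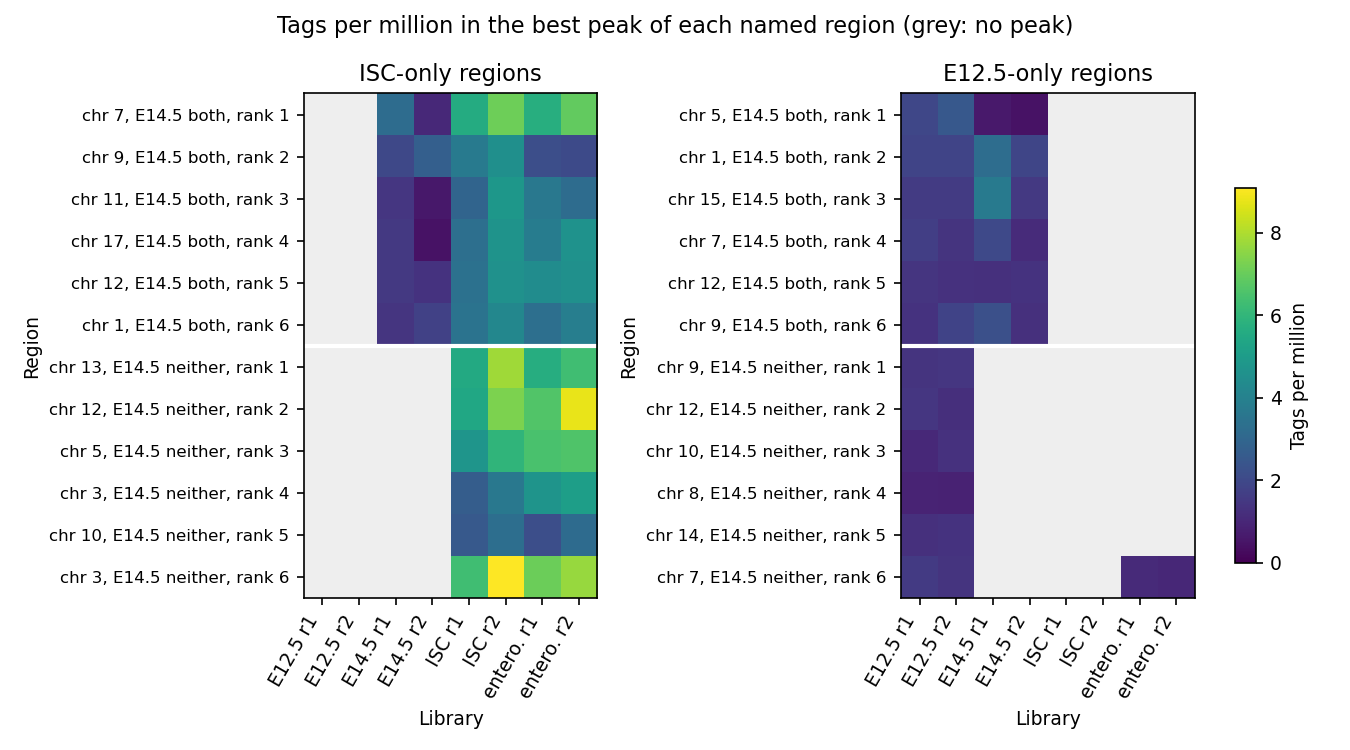
RPM (colour) in the best-scoring peak, not the sum of peaks, of the 24 named regions (rows, by chromosome and rank) in the 8 libraries (columns, r1 and r2 for the replicates); grey marks no peak. The 12 ISC-only regions are coloured in all enterocyte columns, and 11 of the 12 E12.5-only regions are grey in all adult columns.

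Neighbouring peaks of the other group were common near E12.5-only regions when full lists were used. With equal lists the median gap to the nearest peak of the other group was similar, at 4789 bp for ISC-only and 4295 bp for E12.5-only regions. The gap exceeded 10 kb at 23.7% of the ISC-only and 18.3% of the E12.5-only regions. With full lists the median gap from an ISC-only region to an E12.5 peak was 4464.5 bp, and 8.54% of the 13266 regions lay within 500 bp. For the 2362 E12.5-only regions without an ISC peak in the full lists the median gap to an ISC peak was 1481.5 bp, and 21.1% lay within 500 bp. An E12.5 peak was more than 50 kb away at 508 of the 13266 ISC-only regions without an E12.5 peak in full lists, while 3 of the 2362 E12.5-only regions had no ISC peak within that distance. The longer ISC lists place a peak nearer to any point, so gaps with full lists cannot be compared between the directions.

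Group-only regions were spread over all 19 autosomes at similar shares. ISC-only regions were 7.13% (chromosome 9) to 8.0% (chromosome 16) of the regions of a chromosome, and E12.5-only regions 4.40% (chromosome 12) to 5.37% (chromosome 19). On each chromosome ISC-only regions were the more numerous, at 1.36 (chromosome 19) to 1.79 (chromosome 13) for each E12.5-only region. Peaks in both E14.5 libraries were found at 81.2% to 87.9% of the ISC-only and 58.0% to 67.4% of the E12.5-only regions of a chromosome, ranges that did not overlap. These are shares over the same libraries, so the chromosomes are not replicates.

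**Figure D5:**
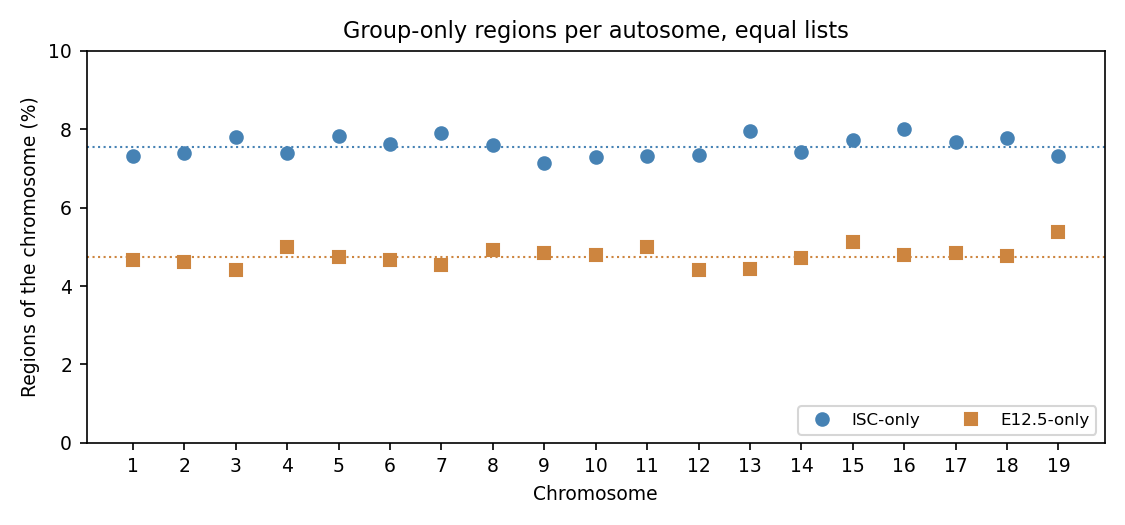
Percent of the merged regions of each autosome (vertical axis) that were ISC-only (circles) or E12.5-only (squares) with equal lists; dotted lines mark the shares over all autosomes, 7.55% and 4.75%. Circles lie between 7.13% and 8.0% and squares between 4.40% and 5.37%.

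Some megabases held more group-only regions than the median of 6 ISC-only and 3 E12.5-only regions per 1 Mb window. Those given here were picked by that count, so they exceed the median by choice. Over all autosomes, ISC-only regions were 29.2% of those called in both ISC libraries. E12.5-only regions were 26.5% of those called in both E12.5 libraries. The window from 189000001 to 190000000 on chromosome 1 held 27 ISC-only regions, 54.0% of the 50 called in both ISC libraries there. Of these, 21 had peaks in both E14.5 libraries and 25 lacked E12.5 peaks in full lists. Next were 22 ISC-only regions from 123000001 to 124000000 on chromosome 5, 35.5% of the 62 called in both ISC libraries there. From 97000001 to 98000000 on chromosome 4 there were 21, which were 67.7% of the 31 called in both ISC libraries. One other window also held 21. For E12.5-only regions the window from 145000001 to 146000000 on chromosome 3 led with 18, but 3 of these lacked an ISC peak in full lists. On chromosome 2, the window from 163000001 to 164000000, and on chromosome 10, that from 116000001 to 117000000, held 16 each, as did 2 more, and both also held 12 ISC-only regions.

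Runs of neighbouring group-only regions were short. The longest run of consecutive regions was 4 in both directions, found 10 times for ISC-only and 3 times for E12.5-only regions. Of the ISC-only runs, one at 189055883 to 189076462 on chromosome 1 (20.6 kb) lies in the leading window; its 4 regions held 38 to 92 tags in the ISC libraries and all had peaks in both E14.5 libraries. Of the E12.5-only runs, one at 14872935 to 14881484 on chromosome 5 held 25 to 57 tags in the E12.5 libraries, and none of its 4 regions had a peak in any ISC or E14.5 library, or in both enterocyte libraries, with full lists. The other 2 E12.5-only runs, on chromosome 5 (125576541 to 125591122) and chromosome 17 (13392488 to 13400102), had weaker ISC peaks in all of their regions.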

How the data were processed

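Each replicate started from 1 µg of DNA in fragments of 150 to 250 bp, captured with the MethylMiner kit, per the labels' protocols. The submitters' processing notes name Bowtie 1.1.2, SAMtools 1.2, bcl2fastq 1.8.4 and the build mm9. MACS 1.4.2 called each library by itself with no control and a p-value cutoff of 1e-05, per the file headers. Tag counts per peak are whole numbers as the authors deposited them. The score (minus 10 times log10 of the caller's p-value) and the fold enrichment, a ratio to the local background, are the authors' values per the file headers. Without a control, peak strength is set by the background of the same library.

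Python 3.11.15, pandas 2.3.3 and NumPy 2.4.6 were used. The highest-scoring peaks of each list, as many as the shortest holds, were taken before non-autosomal peaks were dropped, and peaks sharing 1 bp were merged. E14.5 and enterocyte peaks were looked up in full lists. Where a region held several peaks of a library, the tags of the best-scoring one are given, or their sum where the text says so, as counts or as RPM of the library's total tags. No test was made. The overlap and nearest-gap functions were checked on random intervals. The calling was checked by deleting the peaks of a group from the real lists at regions called in all 4 libraries. Named regions had no peak of the other group in full lists and lay over 20 kb from any peak of 1000 tags. The 6 with the highest lower score percentile were taken per direction among those with peaks in both, and in neither, E14.5 library. The regions, rules and alternatives were chosen with earlier results of these data known. Gene lists were not analysed here.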

Additional observations from a re-analysis of the deposited data

Results flagged for a closer look

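Chromosome X, outside the autosomal comparison, held 27 E12.5-only and 2 ISC-only regions with equal lists, 9.25% and 0.685% of its 292 regions, against 4.75% and 7.55% on the autosomes. It is given because its peaks were used in no comparison. The equal lists held 146 and 166 X peaks at E12.5 and 87 and 116 in ISC. The ISC came from males and the sex of the embryos is not given in the sources used here, so stage and sex cannot be told apart on X. Chromosome Y, also left out, had 19 and 21 peaks in the equal E12.5 lists and 14 in each ISC list. Of its 29 regions, 3 were E12.5-only. Whether the Y peaks at E12.5 come from male embryos was not tested.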

How the results depend on the processing

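ISC-only regions outnumbered E12.5-only regions under 12 of 15 alternatives, the exceptions being those without E12.5 replicate 1, without E12.5 replicate 2 and with at least 1 replicate. The ISC-only count stayed within 1.5 times of 14283 under 8 of the 15. It was 74927 with full lists, 7592 with lists 50% as long, 54987 with at least 1 replicate, and 22345 to 35384 with 1 library left out. The E12.5-only count stayed within 1.5 times of 8981 under 8. It was 2839 with full lists, 4636 with lists 50% as long, 69341 with at least 1 replicate, 13593 with ranking by fold, 2362 with absence judged on full lists, and 12700 to 40359 with 1 library left out. The E14.5 share was higher for ISC-only regions under 14 of 16 alternatives, the exceptions being ranking by fold and leaving out ISC replicate 2. For ISC-only regions it was 75.5% with full lists, 94.4% with lists 50% as long, 80.5% with at least 1 replicate, 82.2% with ranking by fold, 80.7% with intervals of 100 bp either side of summits, 70.0% where peaks had to cover 50% of a region, 51.3% with E14.5 lists of equal length, and 79.9% to 92.4% with 1 library left out. For E12.5-only regions it was, in the same order, 55.8%, 87.0%, 58.9%, 83.7%, 67.4%, 53.7% and 26.1%, with 57.3% where absence was judged on full lists and 60.01% to 82.0% with 1 library left out. The cause of these shifts was not tested, apart from leaving out a library or asking for 1 replicate, which admit more regions by construction. Where peaks had to cover 50% of a region, the 2 E14.5 libraries differed widely. The SD was 23.5 for ISC-only and 29.9 for E12.5-only regions. Of the 12 named ISC-only regions, 2 were ISC-only with summit intervals and 7 with ranking by fold, and of the 12 named E12.5-only regions 8 were E12.5-only with summit intervals. No paired analysis was possible because the results are counts of regions that come from no test. Depth differed between the groups, and regions without a peak may hold tags below the caller's cutoff.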

Other observations

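With full lists, 2 short stretches held clusters of E12.5-only regions, chosen here after their values were seen. Other 1 Mb windows held similar counts over longer spans. The window from 163000001 to 164000000 on chromosome 2 held 9 over 656 kb, each with an E14.5 peak. That from 135000001 to 136000000 on chromosome 4 held 8 over 735 kb, 3 of them with no E14.5 peak. On chromosome 8, 10 E12.5-only regions lay between 19709269 and 19994633 (285 kb), against a median of 1 per 1 Mb window over 2414 windows. They held 22 to 164 tags in E12.5 replicate 1 and 22 to 95 in replicate 2. Enterocyte peaks were at none of the 10, and 8 had no E14.5 peak. On chromosome 5, 7 lay between 14872935 and 14980686 (108 kb), with 34 to 106 and 25 to 138 tags in the E12.5 replicates. Enterocyte peaks were at none of the 7, and 5 had no E14.5 peak. Over all 2839 E12.5-only regions of the full lists, 66.0% had no enterocyte peak and 27.4% no E14.5 peak. In the 1 Mb windows of these 2 stretches, E12.5-only regions were 8.47% and 7.29% of the regions, against 0.791% over all autosomes. There 22 and 10 regions were ISC-only with full lists, so neither window lacked ISC peaks throughout. A high share was not particular to these windows. That from 146000001 to 147000000 on chromosome 4 held 7 E12.5-only regions over 795 kb, 7.69% of its regions, beside 8 ISC-only regions. Of these 7, 5 had no enterocyte peak and 3 no E14.5 peak.

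At chromosome ends, ISC-only regions were 9.08% of the 1222 regions in the first Mb of peaks of the 19 autosomes and 9.62% of the 1019 in the last Mb, against 7.53% elsewhere. E12.5-only regions were 4.75% and 4.32%, against 4.75% elsewhere. These differences were not tested.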
